A study of Macaca mulatta with 12 samples.

Results

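Cells of expanded B cell clones in the blood of healthy rhesus macaques were set against B cells whose clone was seen only once. Members were chosen by the sequence of the heavy chain. The expression table held 13849 cells, of which 13324 were annotated as B cells, and 10406 of these carried exactly 1 productive heavy chain contig (an assembled receptor sequence). Cells of the same animal with the same V gene, J gene and CDR3 nucleotide sequence were put in the same clone. Under this rule 263 cells formed 125 clones of 2 or more cells (expanded clones), and 10143 cells were the only cell of their clone (single cells). Clones of 2 cells, just inside the threshold, made up 116 of the 125, and a further 6 clones had 3 cells, 2 had 4 and 1 had 5.

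Blood mononuclear cells came from 6 unmanipulated, healthy juvenile macaques of Indian origin, aged 2 to 3 years, and a gene expression library and a B cell receptor library were made from each animal with droplet capture of 5' mRNA ends (v2 chemistry). The 4 females were in batch 2 and the 2 males in batch 1, so sex and batch cannot be told apart. There was no treatment, and expanded and single cells are compared within each animal. Subtypes are the submitters' annotation, in which MBC is read as memory B cell and the other prefixes are used as given; 525 cells annotated as contamination were left out.

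Each B cell assembles its heavy and light chain genes from V, D and J segments, and the junction of these segments, the CDR3, differs between most newly made B cells. Daughters of a cell inherit its rearranged heavy and light chain, so cells with the same junction are read as mates of a clone. After activation B cells can change bases of the V region and switch from IgM and IgD to IgG, IgA or IgE, and memory B cells that result circulate in blood beside naive cells.

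The 6 clones with the most cells show what the rule joined. Their heavy chain CDR3 sequences, from the deposited contigs, are written 5′ to 3′ with the first and last codons in capitals.
Male 2, IGHV4-143 with IGHJ5-1, 5 cells: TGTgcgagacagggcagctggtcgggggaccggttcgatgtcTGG
Male 1, IGHV4-160 with IGHJ3, 4 cells: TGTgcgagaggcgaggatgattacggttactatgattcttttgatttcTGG
Male 2, IGHV2-174 with IGHJ4, 4 cells: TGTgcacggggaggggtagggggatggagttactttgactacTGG
Male 2, IGHV4-80 with IGHJ4, short CDR3, 3 cells: TGTgcgacagaggggggtccctacTGG
Female 1, IGHV3-30 with IGHJ4, 3 cells: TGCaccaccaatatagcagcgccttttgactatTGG
Male 2, IGHV4-80 with IGHJ4, long CDR3, 3 cells: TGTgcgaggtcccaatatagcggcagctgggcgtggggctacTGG

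The IGHV4-143 clone of male 2 held 3 C-MBC 1 cells and 2 M-MBC 2 cells, all IgM, with the same lambda genes (IGLV8-125 and IGLJ3) in all 5 cells and 0 V region differences between them. The IGHV4-160 clone of male 1 was IgG1 in all 4 cells, which lay in 3 subtypes. The IGHV2-174 clone of male 2 was 4 CD11c+ MBC 1 cells, 3 with IgM and 1 with IgD. Its V region had 0 differences from a V region recurrent in that animal, in cells annotated as memory, read from 2 to 6 heavy chain UMIs (distinct RNA molecules counted) per cell. Both IGHV4-80 clones were of another kind, with up to 21 V region bases that differed between mates in the one with the short CDR3 and up to 13 in the one with the long CDR3.

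The most V region differences between mates, 23, were in the IGHV4-73 clone of male 2, and its whole V regions (FWR1 to FWR3, 288 bases) are shown with the bases that differ in capitals.
IGHV4-73 clone, C-MBC 1 cell, IgG1: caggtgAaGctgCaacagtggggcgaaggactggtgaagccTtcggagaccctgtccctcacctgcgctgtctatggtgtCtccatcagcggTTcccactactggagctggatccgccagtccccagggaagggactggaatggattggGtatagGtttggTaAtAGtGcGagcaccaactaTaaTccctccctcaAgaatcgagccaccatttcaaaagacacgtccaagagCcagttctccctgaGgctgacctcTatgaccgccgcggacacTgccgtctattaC
IGHV4-73 clone, M-MZL BC cell, IgG1: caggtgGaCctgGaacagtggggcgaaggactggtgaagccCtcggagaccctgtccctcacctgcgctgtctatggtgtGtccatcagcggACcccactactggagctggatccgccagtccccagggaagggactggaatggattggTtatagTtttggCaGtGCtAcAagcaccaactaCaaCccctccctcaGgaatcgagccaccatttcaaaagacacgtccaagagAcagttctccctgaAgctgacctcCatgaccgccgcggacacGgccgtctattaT

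These mates had the same kappa chain, IGKV2-65 with IGKJ1 and an identical light chain CDR3. They lay 6.25 and 11.1 differences per 100 bases from the nearest recurrent V region of the animal. Their heavy contigs had 6 and 3 UMIs, in the same order. In CDR2, one of the loops that can touch antigen, 6 of 18 bases differed, and in the framework stretch FWR3 8 of 114.

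Of the 125 clones, 5 held both switched and unswitched cells, and the IGHV3-134 clone of female 3 is shown as an example, again with the bases that differ in capitals.
IGHV3-134 clone, C-MBC 1 cell, IgG1: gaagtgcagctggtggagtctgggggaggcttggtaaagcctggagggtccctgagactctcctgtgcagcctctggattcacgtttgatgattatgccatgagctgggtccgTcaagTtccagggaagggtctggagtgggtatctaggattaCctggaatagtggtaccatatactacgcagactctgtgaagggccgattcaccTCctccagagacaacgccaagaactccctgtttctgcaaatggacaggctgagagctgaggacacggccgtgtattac
IGHV3-134 clone, M-MBC 1 cell, IgM: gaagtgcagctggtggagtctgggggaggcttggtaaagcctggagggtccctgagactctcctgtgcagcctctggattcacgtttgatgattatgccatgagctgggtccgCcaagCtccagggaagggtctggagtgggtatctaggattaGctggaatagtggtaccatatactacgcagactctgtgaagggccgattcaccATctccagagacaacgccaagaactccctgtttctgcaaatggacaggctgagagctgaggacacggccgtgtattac
IGHV3-134 clone, C-MBC 1 cell, lambda CDR3: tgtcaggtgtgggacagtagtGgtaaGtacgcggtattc
IGHV3-134 clone, M-MBC 1 cell, lambda CDR3: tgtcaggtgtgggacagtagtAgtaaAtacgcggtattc

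The IgG1 mate of this clone lay 1.75 differences per 100 bases from a recurrent V region and the IgM mate 0; the mates were 5 bases apart over the V region and 2 in the light chain CDR3. The IGHV1-200 clone of female 3 had the same order, with the IgG1 mate at 2.11 per 100 bases and the IgM mate at 0, 6 bases apart. In the IGHV3-59 clone of female 1 the order was turned. Its IgG1 mate was at 0 and its IgM mate at 0.351 per 100 bases, 1 base apart. Each IGHV1-200 mate carried 2 light chains and each IGHV3-59 mate 0, so the light chains of these mates were not compared. Where clones were also required to share the light chain, 1 clone with switched and unswitched cells remained. It was the IGHV3-37 clone of female 1, whose cells had 2 and 21 heavy chain UMIs.

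Expanded clones were found in all 6 animals and differed in number between them. The share of cells in expanded clones was 1.54% in male 1 (33 of 2142 cells), 3.70% in male 2 (75 of 2025), 3.65% in female 1 (85 of 2327), 0.562% in female 2 (6 of 1068), 1.86% in female 3 (44 of 2367) and 4.19% in female 4 (20 of 477). The exact 95% binomial intervals (Clopper-Pearson) were 0.206% to 1.22% in female 2, the lowest, and 2.58% to 6.40% in female 4, the highest. They did not overlap, but no test between animals was made. All intervals given here cover counting error only and treat cells or pairs as independent. Expanded cells come in clones, 3 in female 2 and 10 in female 4, so the intervals can be too narrow. The mean share was 2.59% ± 1.46 (SD, n = 6).

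**Figure D1:**
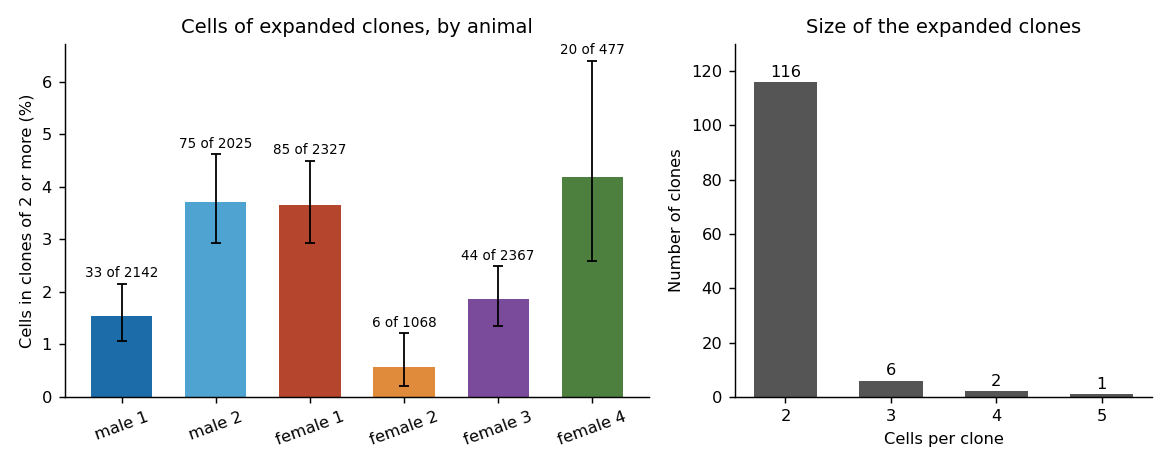
Left, share of B cells in clones of 2 or more, in percent, for each of the 6 animals, with exact 95% binomial intervals. Right, number of expanded clones by cells per clone. Female 2 is lowest at 0.562% and female 4 highest at 4.19%, and 116 of 125 clones hold 2 cells.

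More sampled cells give more chances to meet a mate, so mate pairs were also set against all pairs of cells of an animal. Per 1000000 pairs of cells there were 9.59 mate pairs in male 1, 25.4 in male 2, 17.4 in female 1, 5.27 in female 2, 7.86 in female 3 and 88.1 in female 4. Female 4, the animal with the fewest cells, stood apart on this scale, with 10 mate pairs among 113526 pairs. Of 10268 distinct combinations of V gene, J gene and CDR3, 0 were found in more than 1 animal. Of 13752 distinct cell barcodes 96 occurred in more than 1 expression library, and 6 of the 263 expanded cells carried one of those. The barcodes of mates differed by at least 6 bases, and all 13849 cells were called singlets in the deposited metadata.

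The light chain was not part of the rule, and most mates shared it. Among mates with exactly 1 light chain each, 116 of 134 pairs (86.6%, exact 95% interval 79.6% to 91.8%) had the same locus, V gene, J gene and light CDR3, against 0.0664% of 8771705 pairs of cells from different clones of the same animal. In pairs from different clones with the same heavy V gene the share was 0.112%. Pairs of a clone share cells, so no test was made. By animal the share was 100% in male 1 (18 pairs), 77.1% in male 2 (48), 90.5% in female 1 (42), 100% in female 2 (3), 82.4% in female 3 (17) and 100% in female 4 (6).

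The 18 remaining pairs were mostly near matches in the light CDR3. In 14 of them both light genes were the same and the CDR3 differed by 1 to 4 bases. How often unrelated cells with the same light genes come this close was not tested. Of the 4 pairs with another light V gene, 3 were from male 2, with 0, 2 and 3 light CDR3 bases that differed. In the short IGHV4-80 clone IGKV1-19 was assigned to the M-MBC 1 cell and IGKV1-33 to the M-MBC 2 cell, both with IGKJ2, and their kappa CDR3 sequences are shown because most of their bases are the same, with those that differ in capitals.
Short IGHV4-80 clone, M-MBC 1 cell, kappa CDR3: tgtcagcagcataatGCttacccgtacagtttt
Short IGHV4-80 clone, M-MBC 2 cell, kappa CDR3: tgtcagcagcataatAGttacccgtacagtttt

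The last pair, from female 1, joined a CD11c+ MBC 2 cell and an antibody-secreting cell, the 1 antibody-secreting cell in an expanded clone. Its light chains had different V genes (IGLV3-44 and IGLV3-34) and 13 CDR3 bases that differed, and 1 of the cells had only 2 UMIs in its heavy contig. Whether that contig belonged to its cell was not tested.

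Light chains and heavy V regions varied together across mates. All 103 pairs with identical V regions and 1 light chain each had the same light chain. The 11 pairs with the same light chain and differing V regions had 2 to 23 V region differences, with a median of 3. The 14 pairs that differed only in the light CDR3 had 2 to 13, with a median of 6.5.

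**Figure D2:**
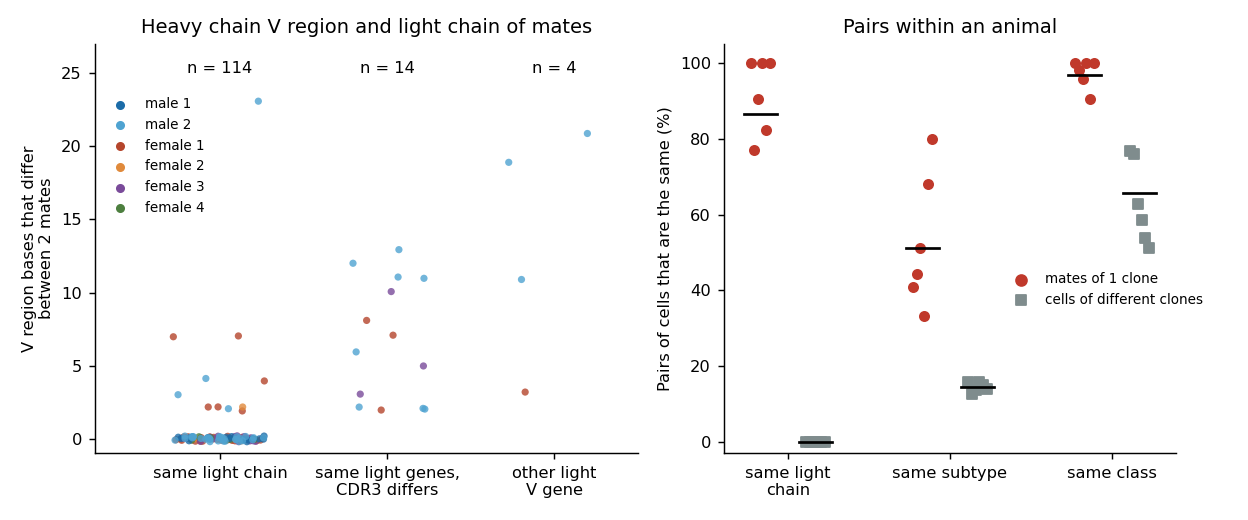
Left, bases of the heavy chain V region that differ between 2 mates (y axis) by the match of their light chains; each point is a pair of mates, coloured by animal and spread slightly for sight. Right, percent of pairs with the same light chain, subtype and class, for mates of 1 clone (red circles, left) and cells of different clones (grey squares, right); points are the 6 animals and lines the value over all pairs. Mates share the light chain in 86.6% of pairs and the subtype in 51.3%.

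Of the 123 clones with V regions that could be compared, 95 had 0 differences between mates and 28 had 1 or more. Among all 125 clones, 19 held a cell with 1 or 2 heavy chain UMIs. The distance to the nearest recurrent V region (same animal, V gene and length, carried by unswitched cells of at least 3 clones) is given in differences per 100 bases. No germline V gene sequences were used, so a distance of 0 does not establish that a V region is unmutated. Of the 82 identical clones with such a reference, 31 were at 0 and 51 were 1 or more bases away. Of the 25 clones with differing mates and a reference, 3 had a mate at 0. The 31 clones at 0 came from 5 animals and held 65 cells, 61 of them IgM or IgD, 47 in MBC subtypes and 18 in naive subtypes. The light chain was the same in 30 of the 30 of their pairs with 1 light chain each, and their heavy CDR3 had a median of 45 bases and a minimum of 30.

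Clones of naive cells were part of the data. Naive B cells 1 gave 8 clones of 2 cells, all of that subtype alone and in 4 animals, and 8 of these 16 cells came from female 3. Naive B cells 3 gave 1 clone, in female 4. All 9 pairs had 0 V region differences, and the 6 with 1 light chain in both mates had the same light chain.

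Memory subtypes took a larger share of expanded cells than of single cells in every animal. The share of cells in subtypes with MBC in their name was 48.5% of expanded and 45.7% of single cells in male 1, 74.7% of expanded and 60.5% of single cells in male 2, 84.7% of expanded and 72.9% of single cells in female 1, 81.8% of expanded and 73.6% of single cells in female 3, and 70.0% of expanded and 47.7% of single cells in female 4. Female 2 had 100% of 6 expanded cells and 78.4% of single cells, and with fewer than 10 expanded cells it was left out of the test. Over the other 5 animals the means were 71.9% ± 14.3 in expanded clones and 60.1% ± 13.3 in single cells (SD, n = 5), a difference of 11.9 percentage points (SD 7.23) that was above 0 in 5 of 5. The exact two-sided sign-flip permutation test over animals gave p = 0.0625, the smallest p that 5 animals allow, and 0.188 adjusted over 3 measures, so 0.05 could not be reached. With female 2 included, a choice made after seeing the data, the difference was 13.5 points in 6 of 6 animals (exact permutation p = 0.0312, unadjusted). Without the naive subtypes in both groups the difference was 7.30 points (SD 9.41; exact permutation p = 0.25), so that the animals no longer all had the same sign.

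Within the 12 subtypes the animals differed. M-MBC 2 took 28% of expanded cells and 11.1% of single cells in male 2, and 23.5% of expanded cells and 10.9% of single cells in female 1, but its share was lower in expanded clones in male 1 and female 3. C-MBC 2 took 30.0% of expanded cells and 8.32% of single cells in female 4, where this was 6 of 20 expanded cells, and 0% of expanded cells in male 1 and female 3. Naive B cells 1 took 6.32% ± 7.01 in expanded clones and 15.8% ± 4.25 in single cells (SD, n = 5); their share was lower in expanded clones in 4 of 5 animals and higher in female 3, at 18.2% of expanded cells and 12.9% of single cells. None of the 12 subtypes moved the same way in all 5 animals, and the smallest exact permutation p was 0.125 (0.75 adjusted over 12).

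**Figure D3:**
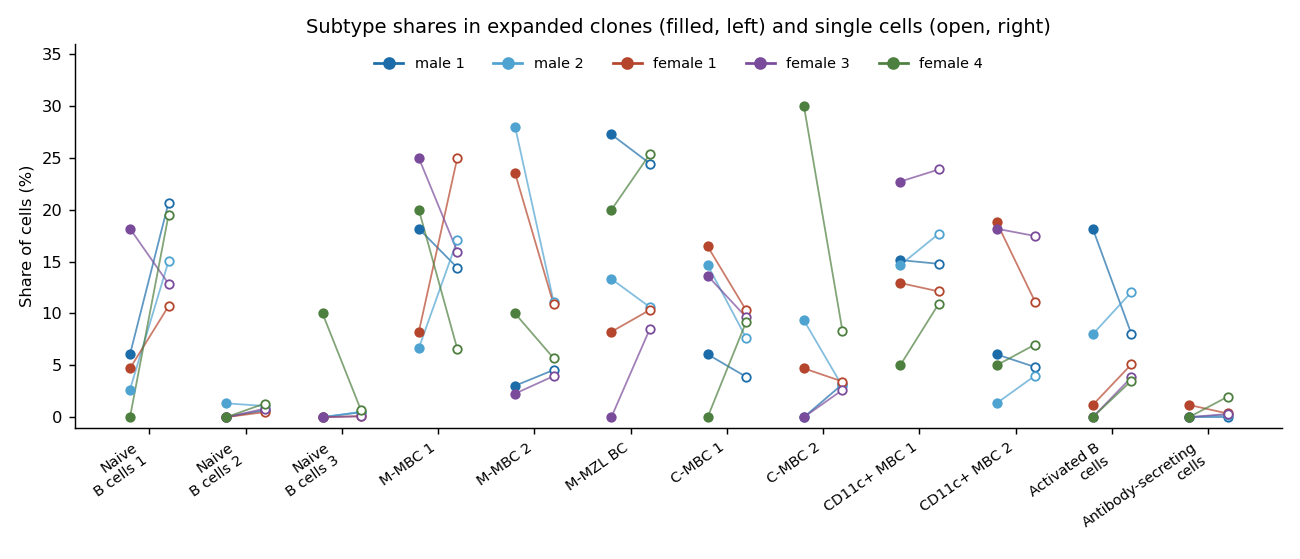
Share of cells in each of 12 subtypes, in percent, in expanded clones (left of each pair) and single cells (right), for the 5 animals with at least 10 expanded cells; lines join the values of an animal. M-MBC 2 is higher in expanded clones in male 2 and female 1, and Naive B cells 1 lower in 4 of 5 animals.

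Counted over all animals, 5.88% of M-MBC 2 cells (46 of 782; exact 95% interval 4.34% to 7.77%) and 4.99% of C-MBC 2 cells (17 of 341; 2.93% to 7.86%) belonged to expanded clones. The share was 1.77% of M-MBC 1 cells (33 of 1860; 1.22% to 2.48%) and 1.09% of Naive B cells 1 (16 of 1462; 0.627% to 1.77%). These are descriptions that pool the animals, and male 2 gave 21 and female 1 gave 20 of the 46 expanded M-MBC 2 cells.

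Mates often lay in the same subtype but not always. Both cells had the same subtype in 80 of 156 mate pairs (51.3%), against 14.4% of pairs from different clones of the same animal and 15.7% of those with the same heavy V gene. The share was above that of other pairs in all 6 animals and ran between 33.3% in female 2 (3 pairs) and 80.0% in female 4 (10 pairs). By clone, 64 held 1 subtype and 61 held 2 or more. Different subtypes were joined most often as CD11c+ MBC 1 with M-MBC 1 (9 clones in 5 animals), C-MBC 1 with M-MBC 2 (7 clones in 2 animals) and M-MBC 1 with M-MBC 2 (6 clones in 2 animals). Of the 10 clones with C-MBC 2 cells 7 held that subtype alone, and of the 27 clones with M-MBC 1 cells 6 did.

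Mates mostly had the same heavy chain class, in 147 of 152 pairs of known class (96.7%), against 65.7% of pairs from different clones. Among the 56 IgG cells of expanded clones 54 were IgG1 and 2 IgG3. IgA was the class of 9 expanded cells and 144 single cells.

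The share of switched cells (IgG, IgA or IgE) did not differ by more than the spread between animals. It was 22.6% of expanded and 13.1% of single cells in male 1, 14.7% of expanded and 13.7% of single cells in male 2, 32.1% of expanded and 23.6% of single cells in female 1, 27.9% of expanded and 34.7% of single cells in female 3, and 30.0% of expanded and 35.8% of single cells in female 4. The mean difference was 1.27 percentage points (SD 7.65, n = 5), positive in 3 animals and negative in 2 (exact permutation p = 0.688). Without male 1 it was -0.78 points and without female 1 -0.54. Against single cells weighted to the subtype mix of the expanded cells it was -4.20 points, below 0 in 4 of 5 animals (exact permutation p = 0.25).

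V region distance did not differ by more than the spread between animals, and its direction varied between them. The mean distance in differences per 100 bases was 2.29 in expanded and 1.49 in single cells of male 1, 3.38 in expanded and 1.80 in single cells of male 2, 2.49 in expanded and 2.23 in single cells of female 1, 1.55 in expanded and 2.10 in single cells of female 3, and 1.67 in expanded and 3.03 in single cells of female 4. Female 4 had only 8 expanded and 144 single cells with a reference. The mean difference over 5 animals was 0.14 (SD 1.15; exact permutation p = 0.812); it was 1.19 over the 2 males of batch 1 and -0.55 over the 3 females of batch 2. Without male 1 it was -0.02 and without male 2 -0.22. Female 2, with 4 expanded cells that had a reference, had 3.77 in expanded and 2.59 in single cells and was not tested; with it the mean difference was 0.32. Against single cells weighted to the subtype and class mix the mean difference was 0.23 (SD 0.43; exact permutation p = 0.312), and 2 animals changed direction: female 4 had 1.67 in expanded and 1.4 in weighted single cells, and female 1 2.49 in expanded and 2.71 in weighted single cells. In male 2, 10.96% of expanded cells and 45.9% of single cells were at 0, while in female 3 it was 63.2% of expanded cells and 45.5% of single cells.

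**Figure D4:**
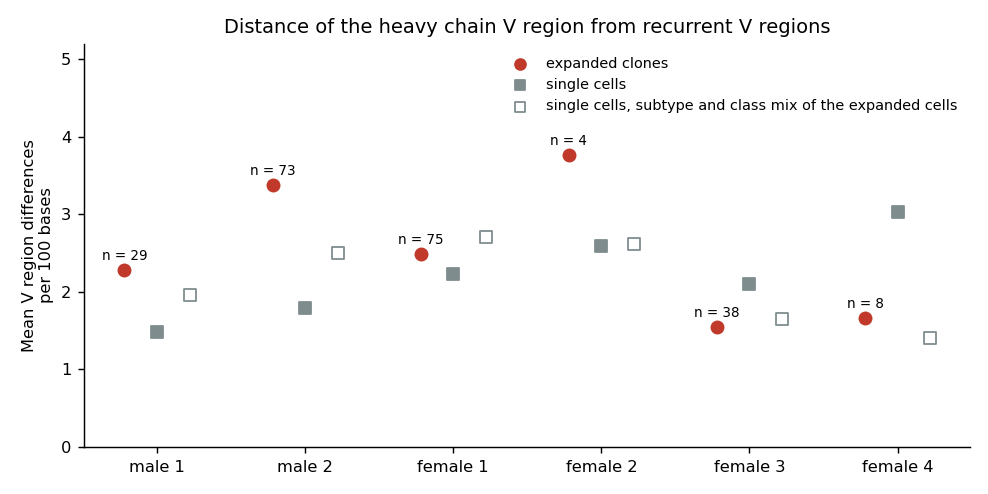
Mean V region differences per 100 bases from the nearest recurrent V region, in expanded clones (red, left), single cells (grey squares) and single cells weighted to the subtype and class mix of the expanded cells (open squares), in each of 6 animals. Expanded cells lie above single cells in males 1 and 2 and below the unweighted single cells in females 3 and 4.

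The heavy CDR3, which defined the clones and is given as a description only, had a median of 45 bases (24 to 78) in expanded clones and 48 bases (15 to 108) in single cells. IGHJ4 was used by 70.4% of expanded clones and 56.9% of single cells, IGHV3 genes by 42.4% of expanded clones and 34.6% of single cells, and IGHV4 genes by 36.8% of expanded clones and 49.4% of single cells.

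Expression was compared in counts summed per animal over expanded and over single cells, with the animal as a block, in edgeR's quasi-likelihood test. Immunoglobulin genes and unnamed identifiers were left out, since mates share their V genes. The sums held 67559 to 536346 counts in expanded clones and 2667695 to 13970818 in single cells. The median of UMIs per cell was lower in expanded clones in 4 of 5 animals (mean of the medians 4068 in expanded and 5282 in single cells). Heavy contig UMIs were lower in 4 and higher in 0 (8.8 in expanded and 11.4 in single cells). The percent of ribosomal counts was lower in 5 of 5 (16.5 and 17.6, exact permutation p = 0.0625, 0.25 adjusted over 4 measures). The mitochondrial percent was higher in 3 and lower in 2. The part of these measures in the results was not tested. Of 8372 genes tested 50 passed an adjusted p of 0.05, or 0.597%, with 17 higher (0.203%) and 33 lower (0.394%) in expanded clones. With DESeq2's size factors in place of TMM the split was 30 higher and 31 lower. Without male 1, 18 genes passed, without female 1 31 and without female 4 97. Fewer cells that express a gene and less of its RNA per cell cannot be told apart in such sums.

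Several genes of naive B cells were lower in expanded clones, and the share of Naive B cells 1 was itself lower in 4 of these 5 animals. Of the 20 genes of the naive list 19 were tested, 7 passed as lower and 0 as higher, and the median log2 difference was -0.41, against -0.02 over all genes tested. FCER2 (CD23, the low affinity IgE receptor) stood at 82.1, 62.2, 23.2, 10.3 and 11.6 CPM in the expanded cells of male 1, male 2, female 1, female 3 and female 4, against 179, 117, 98.4, 110.1 and 132 CPM in their single cells (CPM, the counts of a gene scaled to 1000000 counts per sum). The groups did not overlap (log2 difference -1.82 ± 0.24, SE; edgeR adjusted p = 2.13e-07). The expanded sums of female 3 and female 4 held 195377 and 85622 counts of the genes tested, so the FCER2 values there rest on few counts. FCRL1, an Fc receptor-like protein of the B cell surface, stood at 219, 284, 249, 236 and 313 CPM in the expanded cells of male 1, male 2, female 1, female 3 and female 4, against 564, 418, 537, 521 and 645 CPM in their single cells. It too was lower in 5 of 5 animals without overlap (log2 difference -1.01 ± 0.13, SE; edgeR adjusted p = 2.13e-07). FCER2 and FCRL1 passed with any 1 of the animals left out and under every other alternative run except the fit without the animal block.

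CD72, a B cell coreceptor with an inhibitory motif, averaged 30.9 ± 9.66 CPM in expanded and 72.9 ± 13.1 CPM in single cells (SD, n = 5), again without overlap (log2 difference -1.43 ± 0.26, SE; edgeR adjusted p = 0.000689). CCR7, the receptor that guides lymphocytes into lymph node T zones, averaged 87.6 ± 62.6 CPM in expanded and 178 ± 81.3 CPM in single cells (SD, n = 5) and was lower in 5 of 5 animals (log2 difference -0.82 ± 0.18, SE; edgeR adjusted p = 0.00891). BACH2, a repressor that restrains the plasma cell fate, passed as lower (log2 difference -0.70 ± 0.17, SE; edgeR adjusted p = 0.0208) but stood at 673 CPM in the expanded and 355 CPM in the single cells of female 4. Of the 10 genes of B cell identity FCRLA passed as lower (log2 difference -0.61 ± 0.14, SE; edgeR adjusted p = 0.0155) and 9 did not pass, among them CD79B, a signalling chain of the B cell receptor, at -0.39 ± 0.11 (adjusted p = 0.0899). Here and in the following the fit without the animal block, in which 0 genes passed, is not counted among the alternatives. CD72 did not pass in 3 of 17 alternatives (adjusted p 0.106 to 0.341), among them without female 1 (adjusted p = 0.341). Its expanded values in male 1 and female 4, 41.1 and 23.2 CPM, rest on few counts. CCR7 did not pass in 5 of 17 alternatives (adjusted p 0.0592 to 0.273), among them without male 1 (adjusted p = 0.0925). BACH2 did not pass in 7 of 17 alternatives (adjusted p 0.154 to 1.0), among them without female 1 (adjusted p = 0.408), without male 1 (adjusted p = 0.301) and without male 2 (adjusted p = 0.194). FCRLA did not pass in 6 of 17 alternatives (adjusted p 0.118 to 0.489), among them without female 1 (adjusted p = 0.193) and without male 2 (adjusted p = 0.162).

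Immediate early and NF-κB response genes included further lower genes. Of 18 immediate early genes tested 3 passed, all lower, with a median log2 difference of -0.29 over the 18. They were CD69, which retains lymphocytes in tissue, CD83, which stabilises MHC class II at the cell surface, and the transcription factor MYC. CD69 stood at 233, 733, 477, 765 and 1195 CPM in the expanded cells of male 1, male 2, female 1, female 3 and female 4, against 602, 1106, 957, 1086 and 1362 CPM in their single cells and was lower in 5 of 5 animals (log2 difference -0.67 ± 0.12, SE; edgeR adjusted p = 0.000376); it did not pass where clones were also required to share the light chain (adjusted p = 0.0994). CD83 averaged 1129.7 ± 419.7 CPM in expanded and 1681 ± 453 CPM in single cells (SD, n = 5), with a log2 difference of -0.57 ± 0.10 (adjusted p = 0.000689). MYC averaged 18.3 ± 6.71 CPM in expanded and 49.3 ± 28 CPM in single cells (SD, n = 5), and its groups did not overlap (log2 difference -1.34 ± 0.31 SE, edgeR adjusted p = 0.013). Its expanded values of 13.7 CPM in male 1, 10.3 in female 3 and 23.2 in female 4 rest on few counts. NFKBIA, the inhibitor of NF-κB, was the 1 of 14 genes of the TNF and NF-κB list that passed (log2 difference -0.55 ± 0.11, SE; edgeR adjusted p = 0.00514), and male 1 went the other way. CD83 did not pass in 1 of 17 alternatives (adjusted p = 0.0632). MYC did not pass in 8 of 17 alternatives (adjusted p 0.0559 to 0.552), among them without female 1 (adjusted p = 0.0559), without male 1 (adjusted p = 0.0567) and without male 2 (adjusted p = 0.288). NFKBIA did not pass in 4 of 17 alternatives (adjusted p 0.147 to 0.859), among them without female 3 (adjusted p = 0.165).

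CD74, the invariant chain of MHC class II, averaged 21358 ± 4711 CPM in expanded and 26532 ± 4302 CPM in single cells (SD, n = 5) and was lower in 5 of 5 animals (log2 difference -0.32 ± 0.07, SE; edgeR adjusted p = 0.00813); it was the 1 of 13 antigen presentation genes tested that passed. Other genes with a large decrease were AEBP1, at 0 counts in the expanded cells of male 2, ZDHHC14, a palmitoyltransferase, PGM2L1, a sugar phosphate enzyme, and ZNF318, a zinc finger protein needed for IgD expression. Their log2 differences were -2.03 ± 0.42, -1.67 ± 0.41, -1.20 ± 0.25 and -1.15 ± 0.25. GZMB, a granule protease of cytotoxic and plasmacytoid cells, passed as lower (log2 difference -2.08 ± 0.50, SE; edgeR adjusted p = 0.0208) and stood at 0, 26.7, 3.56, 5.13 and 0 CPM in the expanded cells of male 1, male 2, female 1, female 3 and female 4, against 37.9, 4.01, 26.6, 14.8 and 215 CPM in their single cells, so that male 2 went the other way. CD74 did not pass in 9 of 17 alternatives (adjusted p 0.0525 to 0.489), among them without male 1 (adjusted p = 0.0567) and without male 2 (adjusted p = 0.0543). AEBP1 did not pass in 3 of 17 alternatives (adjusted p 0.389 to 0.487), among them without female 1 (adjusted p = 0.389). ZDHHC14 did not pass in 8 of 17 alternatives (adjusted p 0.0526 to 0.827), among them without female 1 (adjusted p = 0.827), without male 1 (adjusted p = 0.0693) and without male 2 (adjusted p = 0.0526). PGM2L1 did not pass in 6 of 17 alternatives (adjusted p 0.0513 to 0.428), among them without female 1 (adjusted p = 0.132) and without male 1 (adjusted p = 0.0724). ZNF318 did not pass in 6 of 17 alternatives (adjusted p 0.058 to 0.273), among them without female 1 (adjusted p = 0.236) and without male 1 (adjusted p = 0.0622). GZMB did not pass in 5 of 17 alternatives (adjusted p 0.184 to 1.0), among them without female 1 (adjusted p = 0.184), without female 4 (adjusted p = 0.488) and without male 1 (adjusted p = 0.251).

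By the rule for named genes 5 genes were higher in expanded clones, each in 5 of 5 animals. TRERF1, a transcriptional regulator, stood at 27.4, 35.5, 116, 87.3 and 46.4 CPM in the expanded cells of male 1, male 2, female 1, female 3 and female 4, against 14.1, 22.6, 48.1, 44.7 and 26.7 CPM in their single cells (log2 difference 1.05 ± 0.22, SE; edgeR adjusted p = 0.00537). C7H15orf39, PITPNC1 (a phosphatidylinositol transfer protein), ARAP2 (a GTPase-activating protein) and RNF167 (a ubiquitin ligase) had log2 differences of 0.73 ± 0.18, 0.61 ± 0.14, 0.54 ± 0.14 and 0.54 ± 0.14. TYROBP, a signalling adaptor known from myeloid and NK cells, was higher in 4 of 5 animals and lower in female 4 (log2 difference 0.57 ± 0.14, SE; edgeR adjusted p = 0.0264). TRERF1 did not pass in 3 of 17 alternatives (adjusted p 0.132 to 0.73), among them without female 1 (adjusted p = 0.73). C7H15orf39 did not pass in 10 of 17 alternatives (adjusted p 0.0658 to 0.859), among them without female 1 (adjusted p = 0.282), without male 1 (adjusted p = 0.0994) and without male 2 (adjusted p = 0.0835). PITPNC1 did not pass in 8 of 17 alternatives (adjusted p 0.061 to 0.662), among them without female 1 (adjusted p = 0.324), without female 3 (adjusted p = 0.285) and without male 1 (adjusted p = 0.0676). ARAP2 did not pass in 10 of 17 alternatives (adjusted p 0.0639 to 0.748), among them without female 1 (adjusted p = 0.748), without female 3 (adjusted p = 0.0711) and without male 1 (adjusted p = 0.193). RNF167 did not pass in 8 of 17 alternatives (adjusted p 0.0515 to 0.552), among them without female 3 (adjusted p = 0.381), without female 4 (adjusted p = 0.0515) and without male 1 (adjusted p = 0.2). TYROBP did not pass in 10 of 17 alternatives (adjusted p 0.0595 to 0.582), among them without female 1 (adjusted p = 0.341), without female 3 (adjusted p = 0.239), without male 1 (adjusted p = 0.139) and without male 2 (adjusted p = 0.0595).

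GSTA4, a glutathione transferase, was chosen after its values were seen. It stood at 329, 26.7, 28.5, 77.0 and 92.9 CPM in the expanded cells of male 1, male 2, female 1, female 3 and female 4, against 19.1, 23.6, 9.18, 7.16 and 15.1 CPM in their single cells (log2 difference 2.46 ± 0.32, SE; edgeR adjusted p = 2.13e-07). The expanded cells of male 1 were far above the others, and those of male 2 little above its single cells. GSTA4 did not pass in 1 of 17 alternatives (adjusted p = 0.0948).

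The lists of memory, atypical and secreting cells had 0 genes that passed in either direction in edgeR, of 18, 18 and 15 tested, and 7, 3 and 1 at an unadjusted p under 0.05. Their median log2 differences were 0.19, 0.11 and -0.05. Over all 8372 genes tested 680 had an unadjusted p under 0.05 in the same edgeR test. CD86, a costimulatory ligand, had a log2 difference of 0.48 ± 0.13 (adjusted p = 0.0587), AIM2, a DNA sensor, 0.48 ± 0.16 (adjusted p = 0.186), and SOX5, a transcription factor of atypical memory cells, 0.44 ± 0.13 (adjusted p = 0.103). JCHAIN, which joins IgM and IgA into polymers, had 0.38 ± 0.19 (adjusted p = 0.614), a sign that turned under 3 alternatives. Of 12 cell cycle genes tested 0 passed and 3 had an unadjusted p under 0.05, with a median of -0.06; MCM6, a replication helicase subunit, had 1.06 ± 0.33 (adjusted p = 0.144). Of 14 homing genes CCR7 was the 1 that passed, while CXCR4 and CCR6, both chemokine receptors, had -0.45 ± 0.15 (adjusted p = 0.185) and -0.78 ± 0.29 (adjusted p = 0.299).

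**Figure D5:**
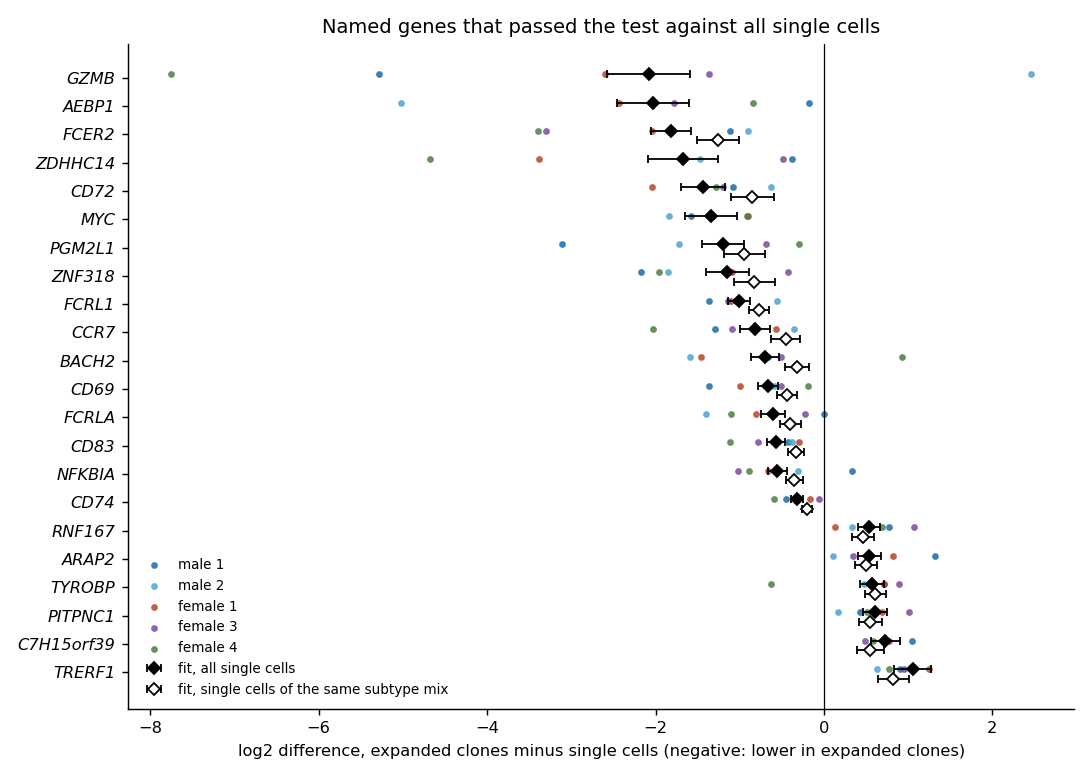
Log2 difference, expanded clones minus single cells, of the named genes that passed the test against all single cells; small points are the 5 animals (on log2 of CPM + 1), filled diamonds the fit against all single cells, open diamonds the fit against single cells of the same subtype mix where the gene was tested, and bars 1 SE. FCRL1 and FCER2 lie below 0 in all 5 animals and TRERF1 above 0.

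Markers of other cells were at low levels in both groups. The B cell marker MS4A1 (CD20) stood at 1406 CPM in expanded cells and 1297 CPM in single cells, summed over the 6 animals. The T cell markers CD3D, CD3E and CD3G stood at 20.7 to 382 CPM in expanded cells and 41.4 to 173 CPM in single cells. Of the 14 genes of the T cell list 10 were tested in edgeR, 0 passed and 6 had an unadjusted p under 0.05. The same held for 680 of all 8372 genes tested. The median log2 difference of the 10 T cell genes was 0.83. The list summed to 174.6 to 893.7 CPM in expanded cells and 126.0 to 372.0 CPM in single cells. CD3D had 0.79 ± 0.21 (adjusted p = 0.0534) and IL7R, the interleukin-7 receptor, 1.24 ± 0.35 (adjusted p = 0.0742); the part of T cell RNA in the other differences was not tested. Of the monocyte markers CD14 was at 0 in expanded cells, and the 4 together stood at 20.7 to 116 CPM in expanded cells and 17.9 to 91.4 CPM in single cells.

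Setting each animal's expanded cells against single cells weighted to the same subtype mix left fewer differences. Fewer genes were tested, and the single-cell sums held 185350 to 8629662 counts, against 2667695 to 13970818 before weighting. The part of this lower depth in the fewer differences was not tested. Of 5286 genes tested 7 passed, or 0.132%, with 4 higher (0.0757%) and 3 lower (0.0568%) in expanded clones. FCRL1 stood at 247, 295, 263, 246 and 349 CPM in the expanded cells of male 1, male 2, female 1, female 3 and female 4, against 535, 407, 412, 522 and 629.8 CPM in their weighted single cells, again without overlap (log2 difference -0.77 ± 0.12, SE; edgeR adjusted p = 0.00034). FCER2 was lower in 5 of 5 animals (log2 difference -1.26 ± 0.25, SE; edgeR adjusted p = 0.0199), as was RASGEF1B, a Ras family exchange factor (log2 difference -0.57 ± 0.13, SE; edgeR adjusted p = 0.0467).

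TRERF1 and TRPS1, a GATA-type zinc finger protein, were higher in 5 of 5 animals, with log2 differences of 0.82 ± 0.18 (adjusted p = 0.0467) and 0.58 ± 0.13 (adjusted p = 0.0467). TYROBP was higher in 4 of 5 animals (log2 difference 0.61 ± 0.13, SE; edgeR adjusted p = 0.027). TFEC, a transcription factor named after its values were seen, was also higher in 4 of 5 animals (log2 difference 1.21 ± 0.24, SE; edgeR adjusted p = 0.0199) and was at 0 counts in the expanded cells of female 4. Without female 3, 0 genes passed in edgeR and 312 had an unadjusted p under 0.05, FCRL1 being at adjusted p = 0.0776; without female 1 11 passed, of which 2 were among the 7, and without female 4 11, of which 5 were. FCER2 did not pass in 7 of 18 alternatives (adjusted p 0.0913 to 0.508), among them without female 3 (adjusted p = 0.425). RASGEF1B did not pass in 9 of 18 alternatives (adjusted p 0.0743 to 0.508), among them without female 1 (adjusted p = 0.297), without female 3 (adjusted p = 0.3) and without male 2 (adjusted p = 0.255). TRERF1 did not pass in 13 of 16 alternatives (adjusted p 0.0504 to 1.0), among them without female 3 (adjusted p = 0.422), without female 4 (adjusted p = 0.0737), without male 1 (adjusted p = 0.0818) and without male 2 (adjusted p = 0.0536). TRPS1 did not pass in 14 of 18 alternatives (adjusted p 0.0504 to 0.508), among them without female 1 (adjusted p = 0.371), without female 3 (adjusted p = 0.425), without female 4 (adjusted p = 0.115) and without male 2 (adjusted p = 0.0536). TYROBP did not pass in 9 of 18 alternatives (adjusted p 0.0818 to 0.642), among them without female 1 (adjusted p = 0.125), without female 3 (adjusted p = 0.425) and without male 1 (adjusted p = 0.0818). TFEC did not pass in 5 of 15 alternatives (adjusted p 0.0853 to 0.842), among them without female 3 (adjusted p = 0.0853) and without male 2 (adjusted p = 0.272).

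Of the 50 genes that passed against all single cells 38 were tested in the weighted comparison. All 38 had the same sign there, 36 were smaller in size, with a median ratio of 0.719, and 6 passed again. Both comparisons use the same expanded cells, so the weighted one is not independent. The log2 differences of CD72, -0.85 ± 0.26 (adjusted p = 0.248), CD69, -0.44 ± 0.12 (adjusted p = 0.118), CD83, -0.34 ± 0.09 (adjusted p = 0.165), and CCR7, -0.45 ± 0.17 (adjusted p = 0.477), did not pass. In this comparison 2 of 15 naive genes passed, both lower, with a median log2 difference of -0.19 against 0.01 over all genes tested.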

How the data were processed

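Per the labels' protocols, mononuclear cells of 6 macaques were captured with 5' chemistry, and an mRNA and a B cell receptor library were made per animal. Tools named in the submitters' processing notes are Seurat 5.0.1, R 4.3.1 and Cell Ranger 9.0.1, and no source used here names the genome build. The deposited matrix holds UMI counts per gene and cell, and their sum equalled the deposited total in all 13849 cells. Contigs, their UMI counts and region sequences were used as the authors deposited them. The percent of mitochondrial and ribosomal counts per cell are the authors' deposited values. Libraries held 3642517 to 20023015 UMIs.

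The members and gene lists were chosen with earlier results of these data known. Expanded and single cells of an animal share that animal and its library, so tests were paired within animals. Permutation p-values measure the spread between these animals. Those of edgeR also draw on a spread estimated over all genes tested. Shares and V region distance were tested by an exact sign-flip permutation over the 5 animals with at least 10 expanded cells, with Benjamini-Hochberg adjustment within a family. Counts summed per animal were tested with edgeR 4.0.16 (TMM, filterByExpr, animal as a block, adjusted p under 0.05), with DESeq2 1.42.0 as an alternative. The procedure was first tested on simulated data. Against all single cells it recovered 7 of 59 genes changed 1.5-fold, 36 of 65 changed 2-fold and 53 of 62 changed 4-fold. Against the subtype mix it recovered 22 of 47, 44 of 49 and 46 of 46. A list with 0 genes that passed is therefore not shown to be unchanged. The 5813 unnamed identifiers (14.9% of UMIs) and 23 immunoglobulin genes (0.188%) were left out, and weighted sums were rounded. Named genes were, per direction, up to 8 that passed with the largest change, a mean log2 CPM of at least 5 and the same direction in every animal, the smallest p where fewer than 4 passed, and 2 or 4 per list by smallest p. Alternatives were other clone definitions, subtypes or animals left out, 1 cell per clone, other scaling, filters and weights; a minimum of 5 expanded cells was added after seeing the data.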

Additional observations from a re-analysis of the deposited data

Results flagged for a closer look

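Female 4 stood far from the other animals in mate pairs per 1000000 pairs of cells, at 88.1, and in the difference of its Naive B cells 3 share, at 9.34 percentage points higher in expanded clones, which rests on 2 cells of 1 clone. Male 1 stood far from the others in the difference of its activated B cell share, at 10.1 points higher in expanded clones. Of 31 groups of values examined 3 had such a value, and chance gives about 1 in 20.

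The M-MZL BC share was higher in expanded clones in both males and lower in the females tested. The mean difference in males exceeded that in females by 8.10 percentage points; this was not tested, and sex and batch cannot be told apart.

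Cells outside the rule also carried heavy chains of expanded clones. These were 5 of 282 B cells with 2 heavy contigs, 20 of 1900 barcodes with a heavy contig that are not in the expression table used, and 11 of 288 cells annotated as contamination that have a heavy contig. They entered no comparison.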

How the results depend on the processing

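The higher memory share in expanded clones kept its direction under every alternative run, at 9.25 to 14.1 points with 1 animal left out, and was smallest without naive subtypes, at 7.30 (exact permutation p = 0.25), and passed 0.05 unadjusted with CDR3s of 90% identity (14.6) and with at least 5 expanded cells per animal (13.5), both with 6 animals. The switched share difference changed sign without naive subtypes (-1.35), with 1 cell per clone (-0.0877), in batch 2 (-1.35), against the subtype mix (-4.20) and with 1 animal left out (-0.78 to 3.29). V region distance did so without naive subtypes (-0.0689), in batch 2 (-0.55), with references of 5 clones (-0.0236) and with 1 animal left out (-0.22 to 0.52).

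The number of subtypes that moved one way in all animals tested, 0, became 1 with the light chain also the same, with 90% identity and with 1 cell per clone, 2 with contigs of at least 3 UMIs, 4 in batch 1, 3 in batch 2 and 0 to 2 with 1 animal left out. Signs turned for Naive B cells 3 with the light chain (-0.29), at 3 UMIs (-0.34), in batch 1 (-0.49) and without female 4 (-0.29 to 2.17 with 1 animal left out). They turned for M-MBC 1 with 1 cell per clone (0.55), in batch 2 (1.89) and without male 2 (2.36) or female 1 (-3.60 to 3.96 with 1 animal left out), and for M-MZL BC with the light chain (1.2) and in batch 1 (2.76). They turned for CD11c+ MBC 2 with 1 cell per clone (-0.38), in batch 1 (-0.72) and without female 1 (-0.69 to 1.90 with 1 animal left out), for Activated B cells in batch 1 (3.03), and for antibody-secreting cells at 90% identity (0.0131) and without female 4 (-0.62 to 0.0783 with 1 animal left out).

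With 90% identity 4.19% of cells were in clones, and 57.0% of mate pairs had the same light chain. With 1 animal left out these were 2.26% to 2.99% and 84.5% to 91.9%. Against all single cells 50 genes passed; the number was 26 with the light chain, 241 at 90% identity, 32 without naive subtypes, 22 with 1 cell per clone, 25 in batch 2, 5 with DESeq2's Wald test, 87 without a filter, 90 with at least 5 cells, 33 with the left-out identifiers kept and 18 to 97 with 1 animal left out. Against the subtype mix 7 passed; the number was 4 with the light chain, 28 at 90% identity, 11 at 3 UMIs, 1 with 1 cell per clone, 4 in batch 2, 1 with DESeq2, 25 without a filter, 1 with class also weighted and 0 to 11 with 1 animal left out. Without the replicate block, which pairs the sums of an animal, 0 genes passed in edgeR in both comparisons (249 and 77 at an unadjusted p under 0.05). JCHAIN turned sign with the light chain (-0.50), at 3 UMIs (-0.60) and with 1 cell per clone (-0.82), and PDIA4 with the light chain (-0.15) and at 3 UMIs (-0.047). The cause of these changes was not tested. Depth limits the expanded sums, which held as few as 67559 counts.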
